A study of Mus musculus with 8 samples.

Results

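The translation initiation factors were compared between fetal livers of wild-type (WT) and Eklf knockout (KO) mouse embryos. They were taken as all probe sets whose only gene symbol on the array starts with Eif1 to Eif6, with the eIF2 kinase symbols (Eif2ak) and Eif5a, which works in elongation, left out. The rule found 116 of the 45101 probe sets, naming 41 of the 18193 genes with such a probe set. EKLF, encoded by Klf1, is an erythroid zinc finger transcription factor that binds CACCC elements. Total RNA of 4 WT and 4 homozygous Eklf-/- livers at E14.5, labelled as primary tissue without culture, was hybridised to 1 Affymetrix array each. The knockout lines were of the B6 strain and came from a BAC construct carrying an engineered Eklf locus and E2A-Cre mice, and the deletion was homozygous and not limited to 1 cell type of the liver. The WT embryos are labelled by genotype alone. All WT titles carry one code and all KO titles another. The labels do not say what the codes stand for, so whatever they mark and the genotype cannot be told apart, and nothing in the labels ties an array to a litter.

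Eukaryotic translation starts when eIF2, with GTP, brings the initiator tRNA to the small ribosomal subunit together with eIF1, eIF1A, eIF3 and eIF5. The eIF4 proteins bind the mRNA cap, unwind the leader and recruit that complex, and eIF5B joins the large subunit once the start codon is found. eIF2B recharges eIF2 with GTP and is the step blocked by the eIF2 kinases, one of which (HRI) ties globin synthesis to heme in red cell precursors, and the eIF4E-binding proteins hold back the cap-binding step when mTOR is inactive. The measurements below are of mRNA and not of protein or of its phosphorylation.

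The arrays were alike in scale by construction, with the same trimmed mean signal, but 45.7% to 46.4% of probe sets had a signal above 100 in WT and 49.4% to 52.5% in KO. Klf1 was 9.81-fold lower in KO (limma log2 difference, taken as KO less WT throughout, -3.29, SE 0.0994, adjusted p = 5.9e-07). The sources used here do not place its probe set inside or outside the deleted segment, so this does not settle the labels. All 6 tested erythroid markers fell, their summed signal lying between 81293 and 84798 in WT and between 33766 and 37049 in KO. Of 7 tested hepatocyte markers 5 fell and 1 rose, and their sums ranged from 206875 to 233832 in WT and from 132111 to 166906 in KO. The endothelial list rose in 4 of 6 genes (sums of 4693 to 5192 and 5844 to 7117), the megakaryocyte list rose in 2 of 4 (22050 to 25101 and 25133 to 31661) and the macrophage list fell in 1 of 8 (15093 to 19004 and 9860 to 19260). Of the defining markers Hbb-b1, Hba-a1, Trf, Serpina1a and Gp1ba had no tested probe set. In whole livers, fewer cells of a type and less RNA per cell cannot be told apart, and the part of these shifts in the values below was not tested. The 3-prime to 5-prime log2 difference of the Actb control probe sets, a sign of RNA quality, averaged 0.851 ± 0.0798 in the 4 WT arrays and 0.547 ± 0.0625 in the 4 KO arrays (mean ± SD). The two-sided exact permutation p was 0.029, which is as low as 70 assignments can give. For Gapdh it averaged -0.163 ± 0.0551 and -0.197 ± 0.0338 (exact p = 0.4).

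Among the initiation factors, the genes that fell belonged to eIF1, eIF2, eIF3 and eIF4, led by Eif1ax (log2 difference -0.68), Eif4g2 (-0.60), Eif3b (-0.59) and Eif2s3x (-0.58). The genes that rose were Eif4ebp1 (0.67), Eif2b5 (0.56), Eif4a2 (0.50) and Eif5b (0.37). Of 100 member probe sets with a group mean above a signal of 100, 15 were higher and 26 lower in KO at adjusted p under 0.05, and 59 did not pass. Among these calls, dim probe sets of Eif2s2, Eif4g3 and Eif4e3 reached that signal only through KO, and those of Eif3l and Eif4g2 only through WT. Over all 23379 tested probe sets 34.4% were higher and 17.7% lower, so members were called higher less often and lower more often than the array as a whole. This comparison is a description. With each gene represented by its brightest probe set, 4 of 40 genes were higher and 13 lower, against 25.6% higher and 21.0% lower of all 11292 tested genes. The median difference was -0.04 over the member probe sets and 0.17 over all tested ones, and -0.06 and 0.06 over genes. Eif4a3, the helicase of the exon junction complex, was the only member gene without a tested probe set, with log2 signals of 2.03 to 3.72 in WT and 1.90 to 4.35 in KO. Every embryo contributed 1 array, and the p-values measure the spread between 4 arrays of each genotype.

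The split between rises and falls rests on how arrays are put on one scale, and by gene also on the probe set taken. On the mean of a gene's probe sets, with the scale unchanged, 9 genes were higher and 7 lower. Quantile normalization gave 25 member probe sets higher and 17 lower (23.3% and 24.0% of all tested). Scaling to the 75th percentile, which moved every difference by -0.264, gave 6 and 47 (21.8% and 31.5%). Scaling to the hybridisation controls, a shift of 0.748, gave 73 higher and left none lower (78.9% and 2.29%), also at an unadjusted p under 0.05. Under that scaling all 13 falls of genes named below turned above 0. All differences are therefore to be read relative to the common trimmed mean of the arrays. Of the 13 falls, those of Eif1ax, Eif3b, Eif4e2 and Eif4ebp2 were also called under quantile normalization. Without the filter on low signals, which brings all probe sets into the adjustment, the calls of Eif1ad, Eif1b, Eif2b5, Eif3b, Eif3m, Eif4ebp1, Eif4h and Eif5b were lost (adjusted p of 0.055 to 0.13).

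Brightness also separated the members from the array as a whole. Among all 799 tested probe sets with a mean log2 signal over 13, 67.1% were lower in KO, with a median difference of -0.45. The 24 members in that range had a median of -0.14, and 8 of them (33.3%) were lower. Between 11 and 13 the shares were alike, with 36.4% of 33 members and 34.9% of 2842 probe sets lower. Below a log2 signal of 9, where 42.9% of all 12853 probe sets were higher and 10.4% lower, 3 of 24 members were higher and 4 lower. The median of the members was thus nearer to 0 than that of all probe sets at both ends of the signal range. Since 24 of the 100 members but 799 of all 23379 tested probe sets were over 13, the share of falls in the list and its brightness cannot be read apart. No test was made of this.

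**Figure D1:**
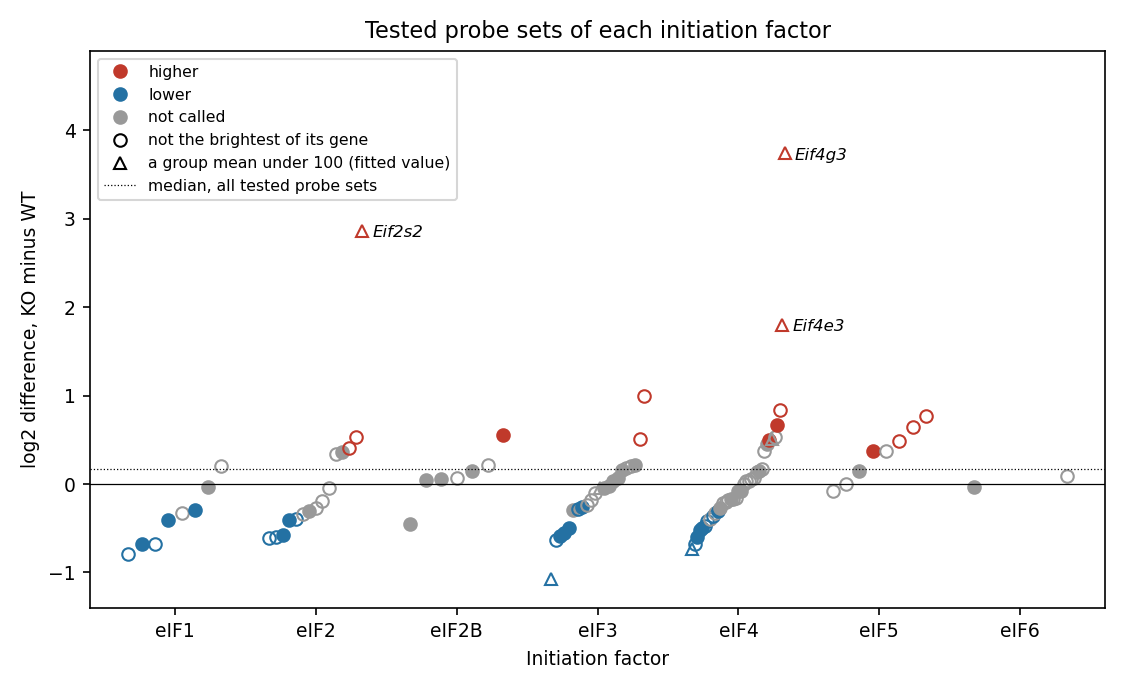
Log2 difference (KO minus WT, vertical axis) of the tested probe sets of each initiation factor, in order of the difference within a factor. Filled points are the brightest probe set of a gene, open points its other probe sets, red is higher, blue lower and grey not called. Triangles have a group mean under a signal of 100, among them the labelled probe sets of Eif4g3, Eif2s2 and Eif4e3, and their heights are fitted values and not measured sizes. All called probe sets of eIF1 lie below 0 and those of eIF5 above it, and Eif2s3y (3.03, not called) is left out.

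The promoter sequences below are those of the called genes with the largest falls (Eif1ax and Eif3b) and rises (Eif2b5 and Eif4a2) for which the RefSeq promoter table (GRCm38.p6) holds an entry. They are shown because EKLF binds CACCC, and each is the 250 bases before the annotated start, 5′ to 3′, with every CACCC, or GGGTG for the other strand, in capitals.
Eif1ax (chrX:159371928-159372177, plus strand): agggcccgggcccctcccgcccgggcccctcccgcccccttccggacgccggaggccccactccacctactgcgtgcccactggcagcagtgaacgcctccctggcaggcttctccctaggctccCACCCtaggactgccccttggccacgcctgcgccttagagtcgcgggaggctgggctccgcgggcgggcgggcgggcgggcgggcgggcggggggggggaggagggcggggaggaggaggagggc
Eif3b (chr5:140419055-140419304, plus strand): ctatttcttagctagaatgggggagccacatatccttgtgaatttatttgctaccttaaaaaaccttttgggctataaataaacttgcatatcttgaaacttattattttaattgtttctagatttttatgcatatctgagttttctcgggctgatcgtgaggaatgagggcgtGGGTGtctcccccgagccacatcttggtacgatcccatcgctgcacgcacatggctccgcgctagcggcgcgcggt
Eif2b5 (chr16:20498567-20498816, plus strand): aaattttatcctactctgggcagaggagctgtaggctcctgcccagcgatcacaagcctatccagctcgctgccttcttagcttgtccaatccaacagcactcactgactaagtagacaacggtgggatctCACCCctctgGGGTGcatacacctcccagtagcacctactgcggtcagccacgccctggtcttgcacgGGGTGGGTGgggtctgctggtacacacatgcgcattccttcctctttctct
Eif4a2 (chr16:23107218-23107467, plus strand): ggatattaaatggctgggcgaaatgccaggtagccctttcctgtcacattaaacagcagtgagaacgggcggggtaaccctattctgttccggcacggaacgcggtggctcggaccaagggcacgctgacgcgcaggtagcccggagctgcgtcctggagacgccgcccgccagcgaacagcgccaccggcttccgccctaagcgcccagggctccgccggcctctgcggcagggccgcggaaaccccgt
Eif1ax and Eif3b each hold 1 match, Eif2b5 holds 4, of which 2 overlap by a base in GGGTGGGTG, and Eif4a2 has none in this window. Across the 39 promoters of the 32 member genes in the table, 21 (53.8%) held CACCC on either strand, against 52.0% of 32851 promoters of the same length. The longer motif CCNCNCCC, which can lie over a CACCC, was in 23 (59.0%) of them and in 45.9% of all promoters. CACCC was in 2 of 3 promoters of genes that were higher, in 7 of 13 of those that were lower and in 12 of 22 of those not called. These count promoters and not genes, the 13 being of 11 genes and the 22 of 17. The overlapping windows of Eif4e2 share the same CACCC, as do those of Eif4g3, so a site can be counted more than once. A match is a description and not a binding site. Eif1a, Eif2b3, Eif3e, Eif3h, Eif3i, Eif4e3, Eif4ebp1, Eif4g2 and Eif6 had no entry.

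Of the eIF1 group, which scans for the start codon on the small subunit, 3 of 4 genes fell and 5 of 8 probe sets were lower. Over the whole array 21.0% of tested genes and 17.7% of tested probe sets were lower. Eif1ax, the X-linked gene of eIF1A, which holds the scanning complex together at the decoding site, had log2 signals of 12.88, 12.81, 12.93 and 12.83 in WT replicates 1 to 4 and of 12.35, 12.12, 12.24 and 12.02 in KO replicates 2 to 5. No KO array reached the WT range, and the fall of 1.60-fold (log2 difference -0.68, SE 0.103, adjusted p = 7.6e-04) was the largest of any member gene on its brightest probe set. Its dimmer probe sets differed by -0.79 (adjusted p = 0.016) and -0.68 (adjusted p = 0.014), so that all 3 were called in one direction, although on both of these KO replicate 2 lay within the WT range. Eif1a, the other eIF1A gene, differed by -0.03 (adjusted p = 0.88) and by 0.20 (adjusted p = 0.18) on its 2 probe sets, and the copies are similar enough that shared hybridisation is possible.

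Eif1b, a close relative of the start codon factor eIF1, was at 11.61, 11.45, 11.55 and 11.50 in WT and at 11.27, 11.16, 11.33 and 11.16 in KO. The groups did not overlap, and the difference was -0.29 (SE 0.0933, adjusted p = 0.026). Eif1ad, named for its eIF1A-like domain, was at 11.29, 11.22, 11.42 and 11.19 in WT and at 11.14, 10.61, 11.02 and 10.69 in KO, a difference of -0.41 (SE 0.140, adjusted p = 0.035). KO replicates 3 and 5 were the lowest, and KO replicate 2 lay just below the WT arrays. The calls of both genes were fragile: that of Eif1b was lost in 5 of the 8 fits that left out an array (adjusted p up to 0.074), and that of Eif1ad in 6 (up to 0.089), among them the fits without any one WT array.

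In eIF2, which carries the initiator tRNA, the beta subunit gene Eif2s2 and the gamma subunit gene Eif2s3x fell on their brightest probe sets, and both also had a probe set that moved the other way. Eif2s2 was at 14.20, 14.18, 14.32 and 14.15 in WT and at 13.73, 13.83, 13.87 and 13.77 in KO, with no overlap (log2 difference -0.41, SE 0.0919, adjusted p = 0.0055). Quantile normalization, which acts most on the brightest probe sets, left a difference of 0.01 (adjusted p = 0.93). A second, dim probe set of the same gene was at 5.74, 6.34, 6.15 and 5.82 in WT and at 8.61, 9.18, 8.90 and 8.81 in KO. It was at least 4.69-fold higher in KO against a signal of 100 (adjusted p = 7.8e-06), and it passed the minimum only through KO. The other 4 probe sets of Eif2s2 differed by -0.40 to 0.34, and 1 of these was lower.

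Eif2s3x on its brightest probe set was at 13.58, 13.11, 13.24 and 13.11 in WT and at 12.79, 12.62, 12.67 and 12.64 in KO, a fall of 1.49-fold (log2 difference -0.58, SE 0.127, adjusted p = 0.0051). Under quantile normalization the difference was -0.29 and not called (adjusted p = 0.079). Another probe set differed by -0.60 (SE 0.113, adjusted p = 0.0025). The remaining one was at 11.18, 10.75, 10.65 and 10.75 in WT and at 11.30, 11.38, 11.27 and 11.01 in KO, a difference of 0.41 (SE 0.144, adjusted p = 0.041), with KO replicate 5 inside the WT range. That rise was not called with the 75th percentile (0.14, adjusted p = 0.43) or the poly-A controls (0.30, adjusted p = 0.22) as the scale, nor without any one of WT replicates 2, 3 and 4 or KO replicates 2, 3 and 4 (adjusted p of 0.075 to 0.11).

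Eif2s3y, the Y-linked copy of the gamma subunit gene, set 1 array apart. Its log2 signal was -0.06 in WT replicate 1 and 11.41, 11.28 and 11.41 in the other WT arrays, and 11.44, 11.75, 11.19 and 11.76 in KO. Xist, transcribed from an inactive X chromosome, was at 13.03 in WT replicate 1 and at 6.17 to 6.84 in the other WT arrays. In KO Xist was at 5.90, 6.09, 5.93 and 5.37. High Xist without Eif2s3y, the pattern of a female embryo, was thus seen in WT replicate 1 alone. Among the WT arrays Eif2s3x was highest in replicate 1 on each of its 3 probe sets. Without that array Eif2s3x differed by -0.47 (adjusted p = 0.0095) and Eif2s3y by 0.17 (adjusted p = 0.42), where all 8 arrays gave 3.03 (SE 2.37, adjusted p = 0.31) for Eif2s3y. Among all members 12 probe sets were higher and 21 lower without it. The X and Y copies are near-identical, and how far their probe sets share targets was not examined.

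**Figure D2:**
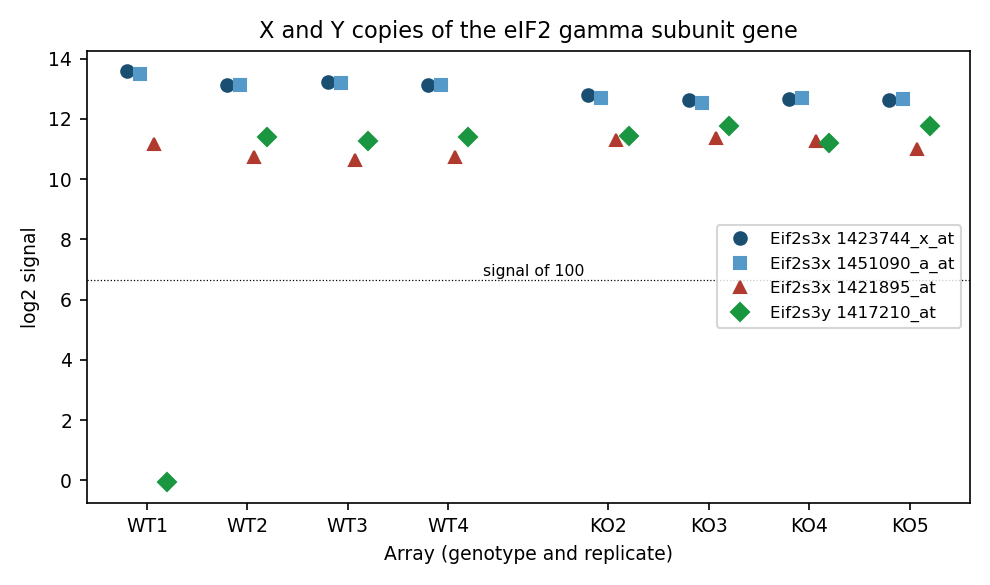
Log2 signal (vertical axis) of the 3 probe sets of Eif2s3x and of the tested probe set of Eif2s3y in each array. WT replicate 1 is at -0.06 for Eif2s3y and has the highest WT signals of Eif2s3x. In KO the 2 bright probe sets of Eif2s3x are lower and the dimmer one (triangles) is higher.

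Eif2a and Eif2d, which can deliver an initiator tRNA without eIF2, were not called on their brightest probe sets, at 0.36 (SE 0.157, adjusted p = 0.08) and -0.30 (SE 0.113, adjusted p = 0.054). Eif2d was at 10.96, 11.05, 10.95 and 10.91 in WT and at 10.74, 10.73, 10.80 and 10.41 in KO on that probe set. On another it was at 9.53, 9.39, 9.61 and 9.70 in WT and at 10.15, 10.04, 10.11 and 10.04 in KO, a rise of 0.53 (SE 0.101, adjusted p = 0.0026). The groups did not overlap on either, in opposite order. The rise was not called on the 75th percentile scale (0.26, adjusted p = 0.057) or on the poly-A scale (0.42, adjusted p = 0.071), and a further Eif2d probe set fell by 0.61 on the log2 scale (adjusted p = 0.02).

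In eIF2B, the exchange factor of eIF2, only Eif2b5, the catalytic epsilon subunit, was called. It was at 9.97, 10.47, 10.60 and 10.28 in WT and at 11.19, 10.70, 10.96 and 10.74 in KO. Every KO array was above every WT array, and the rise was 1.48-fold (log2 difference 0.56, SE 0.169, adjusted p = 0.021). It was lost without WT replicate 1 or KO replicate 2 (adjusted p = 0.05 in each), on the 75th percentile scale (0.30, adjusted p = 0.17) and on the poly-A scale (0.46, adjusted p = 0.13). Eif2b3, the other catalytic subunit, was at 10.53 to 10.91 in WT and 9.97 to 10.63 in KO, differing by -0.45 (SE 0.177, adjusted p = 0.061). The regulatory subunits Eif2b1, Eif2b2 and Eif2b4 differed by 0.06, 0.05 and 0.15 (adjusted p of 0.39 to 0.83).

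The KO arrays were not alike for this complex. Eif2b1 was at 10.64 and 10.59 in KO replicates 2 and 4 and at 9.84 and 9.78 in KO replicates 3 and 5, with WT at 10.05 to 10.36 between them. In each of the 5 eIF2B genes KO replicates 2 and 4 were the 2 highest KO arrays. The same arrangement held in 49 of the 100 member probe sets (49.0%) and in 29.2% of all tested probe sets. KO replicates 3 and 5 were the 2 highest in 16 of the 100 members and in 26.8% of all. The median of the members relative to the WT mean was -0.00 and 0.00 in KO replicates 2 and 4 and -0.11 and -0.17 in KO replicates 3 and 5, while over all tested probe sets it was 0.16 to 0.18 in each. All members were read on the same arrays, no label separates these embryos, and no comparison was made between them.

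Of the 11 genes of eIF3, the large scaffold on the small subunit, 4 fell and 7 were not called, beside 21.0% lower of all tested genes. The eIF3 genes were bright, with WT means of 11.99 to 14.09. Of all tested probe sets 34.9% were lower at a mean log2 signal of 11 to 13, and 67.1% over 13. Eif3b, a core subunit that carries an RNA recognition motif, was at 11.91, 11.82, 12.30 and 11.93 in WT and at 11.73, 11.06, 11.41 and 11.40 in KO (log2 difference -0.59, SE 0.165, adjusted p = 0.015). Eif3i, a WD repeat subunit held by Eif3b, was at 13.90, 14.27, 14.16 and 14.05 in WT and at 13.53, 13.66, 13.36 and 13.62 in KO (log2 difference -0.55, SE 0.118, adjusted p = 0.0046). In both genes the groups did not overlap, with KO replicate 2 of Eif3b nearest to WT. The call of Eif3b was lost without the filter on low signals (adjusted p = 0.057).

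The second probe set of Eif3i was lower by the same order, at -0.63 (SE 0.104, adjusted p = 0.0012). Eif3k, a small subunit at the edge of the complex, was at 13.42, 13.30, 13.43 and 13.27 in WT and at 12.83, 12.79, 12.97 and 12.84 in KO, a fall of 1.41-fold (log2 difference -0.50, SE 0.0950, adjusted p = 0.0026) with no overlap. Under quantile normalization Eif3i differed by -0.14 (adjusted p = 0.39) and Eif3k by -0.19 (adjusted p = 0.13). Eif3m differed by -0.26 (SE 0.0918, adjusted p = 0.04), and its call was lost in 7 of the 8 fits that left out an array.

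Eif3a, Eif3e, Eif3f and Eif3h were close to 0, at -0.02, 0.07, 0.03 and -0.04 (SE of 0.0936 to 0.118). However, a dimmer Eif3a probe set fell by 0.28 on the log2 scale (adjusted p = 0.047). Eif3d, which can bind a cap, was at 0.16 (SE 0.110, adjusted p = 0.24). Eif3l, the partner of Eif3k, had no overlap between groups but was not called (-0.29, SE 0.120, adjusted p = 0.074). A dim probe set of Eif3l was at least 2.01-fold lower (adjusted p = 0.013), its KO mean being under the minimum. Eif3c was at 13.18, 13.22, 13.39 and 13.13 in WT and at 13.39, 13.46, 13.47 and 13.48 in KO on its brightest probe set (0.22, SE 0.0961, adjusted p = 0.085). On another it was at 10.77, 10.77, 10.72 and 10.78 in WT and at 11.61, 12.00, 11.86 and 11.52 in KO, a rise of 1.98-fold (log2 difference 0.99, SE 0.124, adjusted p = 2.8e-04). That rise stayed called under every scaling, between 0.72 and 1.74. A further Eif3c probe set rose by 0.51 (SE 0.106, adjusted p = 0.0037) with no overlap, and the remaining one differed by 0.18 (adjusted p = 0.22).

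In eIF4, the cap-binding and helicase group, 2 of 12 tested genes rose, 4 fell and 6 were not called. Of all tested genes 25.6% were higher and 21.0% lower. The cap-binding protein gene Eif4e differed by -0.17 (SE 0.130, adjusted p = 0.31), while a dimmer probe set of it fell by 0.68 on the log2 scale (SE 0.157, adjusted p = 0.0064). The main helicase gene Eif4a1 differed by -0.08 (SE 0.120, adjusted p = 0.59), with another probe set at -0.47 (SE 0.102, adjusted p = 0.005). Eif4a2, its paralog, was at 12.83, 12.89, 12.97 and 12.94 in WT and at 13.30, 13.60, 13.17 and 13.57 in KO. KO replicates 3 and 5 were the highest, all KO arrays were above WT, and the rise was 1.41-fold (log2 difference 0.50, SE 0.122, adjusted p = 0.0087). It was not called on the 75th percentile scale (0.24, adjusted p = 0.12).

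Eif4g2, which encodes DAP5, an eIF4G-like protein without the eIF4E-binding site, was at 14.66, 14.91, 14.93 and 14.74 in WT and at 14.27, 14.32, 13.97 and 14.26 in KO. All KO arrays were lower (log2 difference -0.60, SE 0.119, adjusted p = 0.0031), though quantile normalization left -0.10 (adjusted p = 0.53). On another Eif4g2 probe set the arrays overlapped, at 11.61, 11.71, 11.86 and 11.66 in WT and at 12.21, 11.68, 12.05 and 11.57 in KO (0.17, SE 0.156, adjusted p = 0.39). One more was at 0.04 (SE 0.0945, adjusted p = 0.75). A dim one was at least 1.12-fold lower (adjusted p = 0.046), its groups overlapping and its KO mean being under a signal of 100. Eif4h, a helicase cofactor, fell on its 2 brightest probe sets, by 0.31 (SE 0.0966, adjusted p = 0.026) and 0.36 (SE 0.0946, adjusted p = 0.011) on the log2 scale. The first of these calls was lost in 5 of 8 fits without an array, and its difference was 0.07 under quantile normalization. The related cofactor Eif4b was at -0.08 (SE 0.0958, adjusted p = 0.53).

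The repressors of the cap step moved in different directions. Eif4ebp1, the mTOR-controlled eIF4E-binding protein, was at 11.81, 11.52, 11.65 and 11.79 in WT and at 11.87, 12.86, 12.02 and 12.71 in KO, a rise of 1.59-fold (log2 difference 0.67, SE 0.226, adjusted p = 0.034). A dimmer probe set was at 10.63, 10.72, 10.71 and 10.62 in WT and at 11.07, 11.89, 11.22 and 11.84 in KO, a rise of 1.79-fold (log2 difference 0.84, SE 0.194, adjusted p = 0.0066). On both, KO replicates 3 and 5 were far above KO replicates 2 and 4, which were themselves above every WT array. The call of the brightest probe set was lost in 6 of the 8 fits that left out an array (adjusted p up to 0.086), those without KO replicate 3 (0.51) and KO replicate 5 (0.56) among them, and on the 75th percentile scale (0.41, adjusted p = 0.14). The third Eif4ebp1 probe set was at 0.53 (SE 0.266, adjusted p = 0.12).

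Eif4ebp2, its paralog, was at 11.87, 11.91, 11.65 and 11.89 in WT and at 11.26, 11.52, 11.15 and 11.40 in KO. WT replicate 3 was the lowest WT array, the groups did not overlap, and the fall was 1.41-fold (log2 difference -0.50, SE 0.118, adjusted p = 0.0073). A dimmer probe set was at 7.53, 7.96, 7.87 and 7.97 in WT and between 7.93 and 8.70 in KO, overlapping (0.37, SE 0.186, adjusted p = 0.12). Eif4ebp3 is not analysed here. Eif4e2, the cap-binding protein 4EHP, which represses translation, was at 11.79, 12.03, 11.99 and 11.94 in WT and at 11.66, 11.38, 11.48 and 11.17 in KO, a fall of 1.43-fold (log2 difference -0.52, SE 0.126, adjusted p = 0.0086). A second probe set of Eif4e2 fell by 0.42 on the log2 scale (SE 0.125, adjusted p = 0.02). Eif4enif1, which moves eIF4E and silences bound mRNA, was not called (-0.27, SE 0.113, adjusted p = 0.072).

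**Figure D3:**
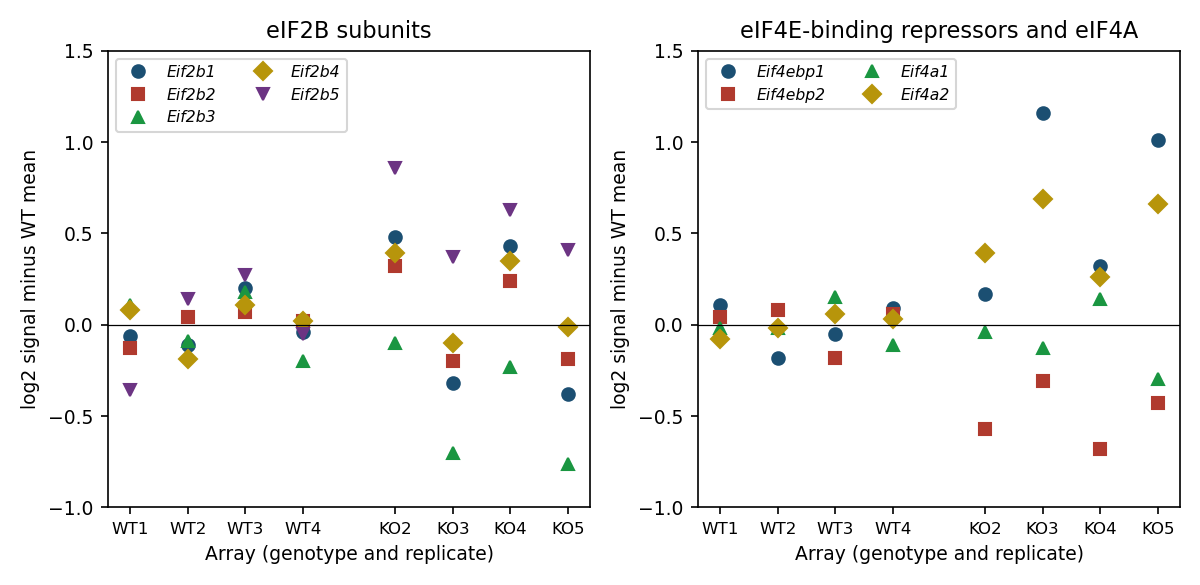
Log2 signal of each array minus the WT mean of the gene (vertical axis), for the 5 eIF2B subunit genes (left) and for the eIF4E-binding protein and eIF4A genes (right), each on its brightest probe set. KO replicates 2 and 4 are above KO replicates 3 and 5 in every eIF2B gene, whereas Eif4ebp1 and Eif4a2 are highest in KO replicates 3 and 5, and Eif4ebp2 is below WT in all 4 KO arrays.

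Dim probe sets of 2 other eIF4 genes were called higher in KO. Eif4g3, an eIF4G scaffold gene, was at 9.99, 9.94, 10.28 and 10.15 in WT and at 10.32, 10.07, 10.14 and 10.45 in KO on its brightest probe set, which overlapped (0.15, SE 0.127, adjusted p = 0.33). Another Eif4g3 probe set was at 3.47, 2.47, 3.09 and 3.03 in WT and at 7.20, 6.52, 6.84 and 6.45 in KO. It was called (adjusted p = 9.2e-06) but can be bounded only at 1.08-fold or more, because WT lay well under a signal of 100 and the KO mean just above it. On the quantile and 75th percentile scales this probe set did not reach the minimum. Eif4e3, a divergent cap-binding protein gene, was at 7.72, 7.77, 7.32 and 7.88 in WT and at 8.19, 8.36, 7.55 and 8.39 in KO on one probe set (0.45, SE 0.206, adjusted p = 0.096). On the other it was at 6.51, 4.67, 5.50 and 5.40 in WT and at 7.06, 7.17, 7.26 and 7.79 in KO, at least 1.60-fold higher (adjusted p = 0.0028). Like the dim probe sets of Eif4g3 and Eif2s2, this one passed the minimum only through KO.

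In eIF5 the 4 called probe sets of 8 were all higher, beside 34.4% higher over all tested probe sets. The 8 belong to 2 genes, of which 1 was called on its brightest probe set. Eif5b, the GTPase of subunit joining, was at 11.47, 11.42, 11.49 and 11.54 in WT and at 11.95, 11.68, 11.87 and 11.91 in KO, a rise of 1.29-fold (log2 difference 0.37, SE 0.0976, adjusted p = 0.012). The KO arrays were all above WT, also on a second probe set (0.49, SE 0.159, adjusted p = 0.028), and the third differed by 0.37 (SE 0.186, adjusted p = 0.12). On the 75th percentile scale the first was at 0.11 (adjusted p = 0.39), and on the poly-A scale at 0.27 (adjusted p = 0.23). Eif5, which makes eIF2 hydrolyse its GTP, was not called on its brightest probe set (0.15, SE 0.109, adjusted p = 0.28), and 2 more were at -0.08 and -0.00, while the remaining 2 rose by 0.64 (SE 0.130, adjusted p = 0.0034) and 0.77 (SE 0.185, adjusted p = 0.0076). Eif6, which keeps the large subunit from joining too early, differed by -0.03 (SE 0.118, adjusted p = 0.83) and 0.09 (SE 0.147, adjusted p = 0.62).

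**Figure D4:**
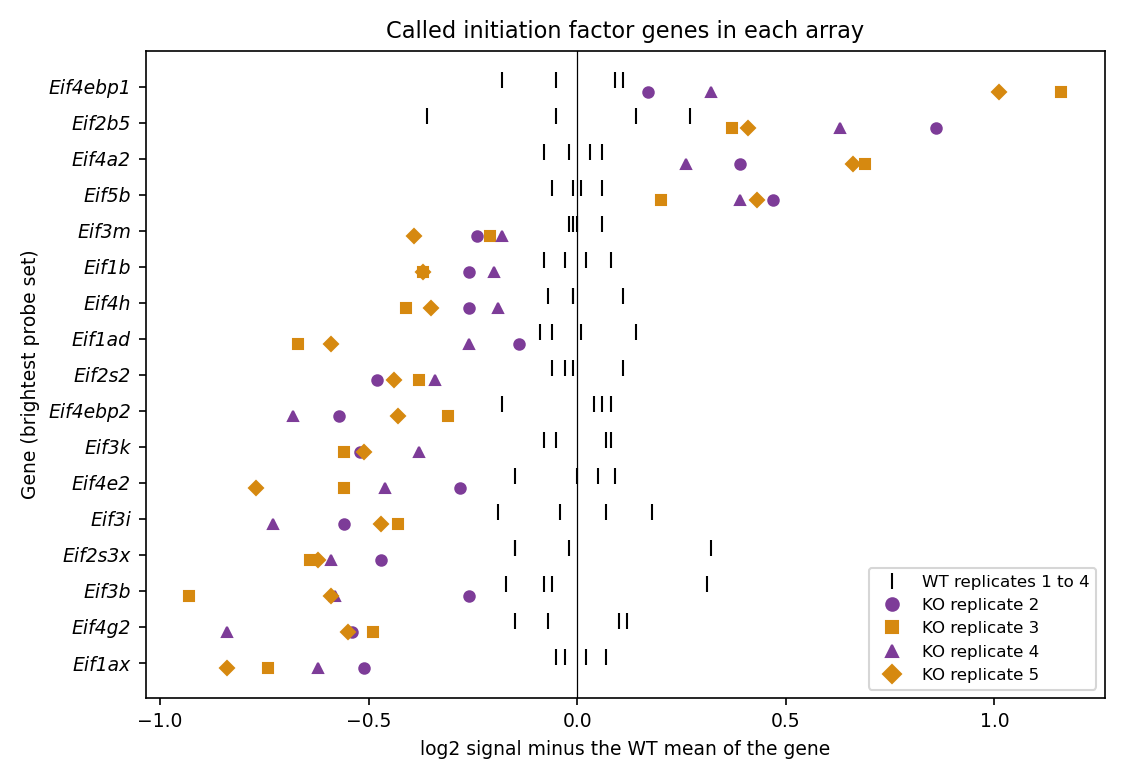
Log2 signal of each array minus the WT mean of the gene (horizontal axis) for the 17 member genes called on their brightest probe set. Bars are the 4 WT arrays and symbols the 4 KO arrays. The KO arrays lie beyond the WT arrays in all 17 genes, which were picked by these same values, so this is no separate result. The KO arrays spread most in Eif4ebp1, Eif3b and Eif1ad (SD of 0.491, 0.273 and 0.254).

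Whether probe sets of the same gene changed alike was tested within each array, as the difference between the brightest probe set and another, which no scaling of whole arrays can move. Of 60 such pairs in 27 member genes, 17 in 12 genes changed unequally between WT and KO, against 38.8% of all 8954 pairs on the array. By factor these were 6 of 11 pairs in eIF2, 7 of 25 in eIF4, 2 of 11 in eIF3 and 2 of 6 in eIF5. In 7 of the 60 pairs a probe set had a group mean under a signal of 100, and 3 of the unequal pairs, those with the dim probe sets of Eif4g3, Eif2s2 and Eif4e3, were among them and are given no size. Of the 53 pairs measured on both sides 14 in 10 genes changed unequally (26.4%), against 34.4% of the 7097 such pairs on the array. Eif2s3x was at -0.98 (SE 0.125, adjusted p = 3.8e-04). Its within-array difference was 2.40, 2.36, 2.58 and 2.36 in WT and 1.48, 1.24, 1.40 and 1.63 in KO, and it stayed near -1 without WT replicate 1 (-0.99, adjusted p = 0.0014).

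Eif4ebp2 (-0.87, SE 0.231, adjusted p = 0.016), Eif2d (-0.82, SE 0.139, adjusted p = 0.0018), Eif3c (-0.77, SE 0.142, adjusted p = 0.0029) and Eif4g2 (-0.77, SE 0.189, adjusted p = 0.012) came next, and another probe set of Eif2s2 was at -0.75 (SE 0.168, adjusted p = 0.0075). Under quantile normalization, which does act within an array, the inequality was not called in Eif4ebp2 (-0.37, adjusted p = 0.25) or Eif4g2 (-0.42, adjusted p = 0.16). Eif2a, Eif5, Eif4e and Eif4a1 had smaller ones, of 0.70, -0.63, 0.52 and 0.39. In the pairs given for Eif2s3x, Eif4ebp2, Eif2d, Eif3c, Eif4g2 and Eif2s2 the dimmer probe set was the higher of the pair in KO relative to WT. It was the lower in those of Eif2a, Eif4e and Eif4a1. Dim probe sets were also the higher over the whole array, with a median difference of 0.40 below a log2 signal of 9 and of -0.45 over 13. Calls in opposite directions were made in 2 of the 60 pairs (3.33%), those of Eif2s3x and of the dim probe set of Eif2s2, and in 3.71% of all pairs. Among pairs measured on both sides there was 1 of 53, that of Eif2s3x, and 219 of 7097 on the array. Which transcript ends or isoforms these probe sets match is not analysed here. Genes whose called probe sets all moved one way included Eif1ax, Eif3i, Eif4h, Eif4ebp1, Eif4e2 and Eif5b.

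**Figure D5:**
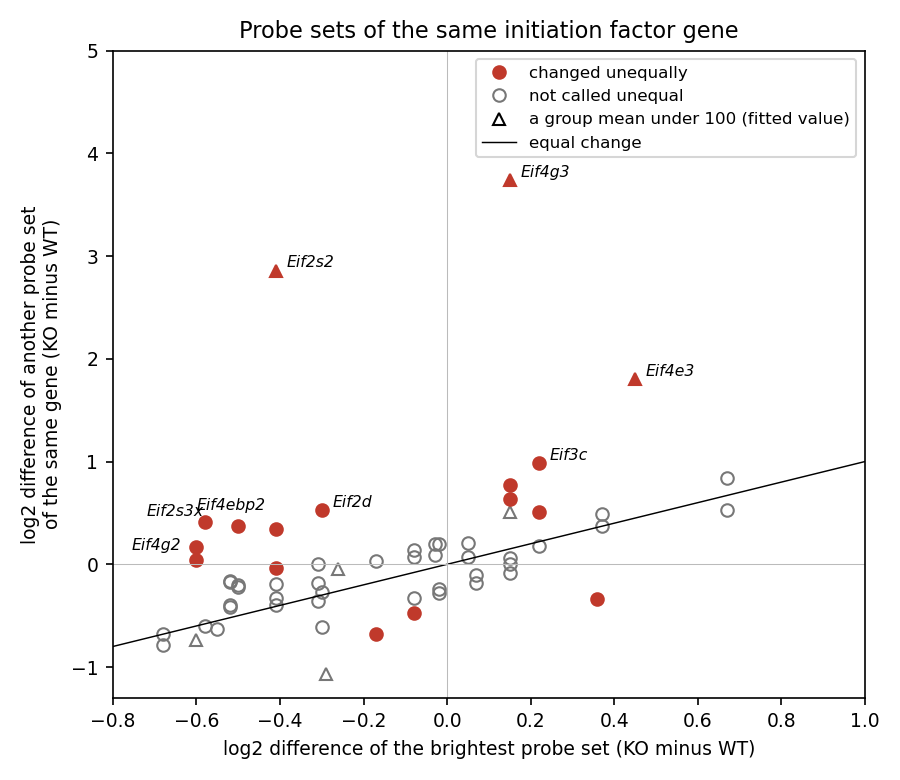
Log2 difference (KO minus WT) of the brightest probe set of a gene (horizontal axis) against that of each other tested probe set of the gene (vertical axis), for the 60 pairs of 27 initiation factor genes. Points on the line changed equally, and the 17 filled points did not. Triangles are the 7 pairs with a group mean under a signal of 100, Eif4g3, Eif2s2 and Eif4e3 among them, whose distance from the line is a fitted value and not a measured size.

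Of 17 tested partners of initiation 2 rose and 5 fell, with a median of -0.26, where 25.6% of all tested genes were higher and 21.0% lower with a median of 0.06. Pabpc4, a poly(A)-binding protein, fell by 1.64 on the log2 scale (SE 0.103, adjusted p = 9.2e-06) and Larp1, which binds mRNAs of the translation machinery, by 0.80 (SE 0.103, adjusted p = 3.3e-04). Mknk1, a kinase that phosphorylates eIF4E, rose by 0.96 (SE 0.134, adjusted p = 5.1e-04), while Mknk2, the other eIF4E kinase, fell by 0.26 on the log2 scale (SE 0.0939, adjusted p = 0.046). Pdcd4, an inhibitor of eIF4A, rose by 0.42 (SE 0.119, adjusted p = 0.016). Of 12 tested elongation and release factors 4 fell and 8 did not pass, with a median of -0.24, against the same 21.0% lower. The falls were led by Eef2k, the kinase that inactivates eEF2 (-2.01, SE 0.0924, adjusted p = 3.1e-06), and by Eef1d (-0.76, SE 0.123, adjusted p = 0.0011). Of the falls in both lists, Pabpc1, Pabpc4, Ddx3x, Eef1a1, Eef1b2 and Eef1d had a mean log2 signal over 13. In that range 67.1% of all tested probe sets were lower, with a median difference of -0.45. The falls of Larp1, Mknk2 and Eef2k were of dimmer probe sets.

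In the mTOR branch, which controls the eIF4E-binding proteins, 4 of 11 tested genes rose and 2 fell, with a median of 0.01, beside the 25.6% and 21.0% over all tested genes. Ddit4, an inhibitor of mTOR induced by stress, was at 8.26, 7.75, 8.18 and 8.61 in WT and at 9.66, 11.58, 10.10 and 12.02 in KO, a difference of 2.64 (SE 0.50, adjusted p = 0.0025). Its KO replicates 3 and 5 were the highest arrays, as they were for Eif4ebp1. These were the 2 highest KO arrays in 26.8% of all tested probe sets, and a link between Ddit4 and Eif4ebp1 was not tested. Rps6kb2, an S6 kinase, rose by 0.66 (SE 0.141, adjusted p = 0.0044). Rptor, the substrate adaptor of mTOR complex 1, fell by 0.54 (SE 0.131, adjusted p = 0.008) and Rheb, its activating GTPase, by 0.35 (SE 0.105, adjusted p = 0.021) on the log2 scale.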

How the data were processed

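The study's methods describe fetal liver RNA hybridised to an Affymetrix mouse genome array and normalised by MAS5.0, and the deposited table holds 45101 probe sets. The authors deposited these values as linear intensities, 1 per probe set and array, and the submitters' notes name MAS5 and R 3.0.2. MAS5.0 sets every array to a common trimmed mean, so a difference here is relative to that mean. Arrays carry no count depth, and their number limits the precision. Groups and replicate numbers came from the sample labels, with WT replicates 1 to 4 and KO replicates 2 to 5. No array duplicated another.

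Intensities were log2-transformed without a pseudocount. Those reaching a mean signal above 100 on the log2 scale in at least 1 genotype entered limma 3.58.1 in R 4.3.3 (lmFit, eBayes, two-sided, genotype as the only term), control probe sets left out and p adjusted by Benjamini-Hochberg over all 23379. A gene was represented by its brightest tested probe set, and the same model was fitted to within-array differences between probe sets of a gene. A fold against a group mean under a signal of 100 is given as a bound against 100. Gene symbols came from the platform annotation (34945 probe sets with 1 symbol, 932 with several, 9160 unnamed, 64 controls), and 6 probe sets with several symbols were not used. All 41 member symbols matched RefSeq by gene ID. Eif1, Eif2s1, Eif3g, Eif3j1, Eif3j2, Eif4a3l1, Eif4e1b, Eif4ebp3 and Eif4g1 had no probe set of a single symbol and were not analysed here. Motifs were searched with Python 3.11.15 and pandas 2.3.3.

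Values in every array are given for called genes (up to 3 rises and 3 falls per factor), for Eif2s3x and Eif2s3y, for the eIF4E-binding proteins and for the 8 genes with the most unequal probe sets. In each pathway list, up to 2 called genes each way are named. Further probe sets, Mknk2, Ddit4's array values, Eif2b1 and Xist were picked with their values in view. The members, lists and tests were chosen with earlier results of these data known. Alternatives were quantile normalization, 3 other scalings (the poly-A controls were added after seeing the data), a pseudocount of 16, no filter or a minimum of 200, the methods' t-test, the replicate number as a block, the mean of a gene's probe sets and leaving out each array. The fit was tested on simulated data.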

Additional observations from a re-analysis of the deposited data

Results flagged for a closer look

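In 60 groups of 4 arrays, those of the probe sets whose values are given in every array, 3 had an array far from the others of its genotype, and chance alone marks about 1 in 20 such groups. Eif2s3y was at -0.06 in WT replicate 1 and at 11.28 to 11.41 in the other WT arrays. Kdm5d, another Y-linked gene, was at 3.41 in the same array and at 8.93 to 9.17 in the other WT arrays. Eif4ebp2 was at 11.65 in WT replicate 3 on its brightest probe set and at 11.87 to 11.91 in the others. Without WT replicate 3 its fall was still called. Eif3c was at 10.72 in WT replicate 3 and at 10.77 to 10.78 in the others on the probe set that rose most. That gap is small beside the difference of 0.99 between genotypes.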

How the results depend on the processing

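Member probe sets called higher in KO numbered 15, and 25 with quantile normalization, 6 with the 75th percentile, 73 with hybridisation controls, 9 with poly-A controls and 9 with the methods' t-test after Benjamini-Hochberg adjustment (14 higher and 27 lower at its unadjusted threshold). Those called lower numbered 26, and 17, 47, 0, 18 and 17 under the same settings in that order, and 13 without a filter. Genes called higher numbered 4, and 12, 0, 29, 2 and 2, then 1 without a filter and 9 on the mean of a gene's probe sets, and those lower 13, then 4 with quantile normalization, 22 with the 75th percentile, 0 with hybridisation controls, 8 without a filter and 7 on the mean of probe sets. The limma counts of 0 with the 75th percentile and hybridisation controls are 0 at an unadjusted p under 0.05 too. The member median of -0.04 became -0.31, 0.72 and -0.15 with the 75th percentile, hybridisation controls and poly-A controls (shift of every difference -0.103). Leaving out an array gave 2 to 6 genes called higher, with 2 without WT replicate 1, and 9 to 16 lower. Hybridisation controls turned Eif1ad to 0.34, Eif1ax to 0.07, Eif1b to 0.45, Eif2s2 to 0.33, Eif2s3x to 0.17, Eif3b to 0.16, Eif3i to 0.20, Eif3k to 0.25, Eif3m to 0.49, Eif4e2 to 0.23, Eif4ebp2 to 0.25, Eif4g2 to 0.15 and Eif4h to 0.44, and quantile normalization turned Eif2s2 to 0.01 and Eif4h to 0.07. The scalings move every difference by construction, and the cause of the other changes was not tested. Unequal pairs numbered 17, and 10 without a filter.

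The replicate numbers did not pair the arrays (correlations of same-numbered deviations of -0.000836, -0.0821 and -0.0272, and no array correlated best with its own number). With the number as a replicate block, 7 member probe sets were higher and 7 lower, 0 genes higher (2 at an unadjusted p under 0.05) and 3 lower, and 8 pairs unequal, the 3 genes being Eif1ax, Eif3i and Eif4g2. Only replicates 2 to 4 are in both genotypes, so that fit rests on fewer arrays. Over the named genes, settings other than leaving out an array kept direction and call in 105 cases, kept direction alone in 42 and reversed it in 15. With an array left out these were 113, 31 and 0. Dim probe sets near a signal of 100 limit what can be said of Eif4g3, Eif4e3 and the rising Eif2s2 probe set.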
